A study of Mus musculus with 9 samples.

Results

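The genes described here are 9 Kruppel-like factors that endothelial cells are known to use: Klf2, Klf3, Klf4, Klf5, Klf6, Klf7, Klf10, Klf11 and Klf13. They were taken by symbol from a table of counts for 24421 genes, and all 9 were found once and passed the filter on low counts that left 13901 genes for testing. RNA was measured in 9 tumors grown from bEnd.3 cells, mouse endothelial cells made tumorigenic by polyoma middle T antigen, in the right flank of male athymic Nu/Nu nude mice. Of these tumors, 5 were from mice given R-propranolol, the isomer of propranolol without significant beta-blocking activity, at 6 mg/kg per day into the peritoneum 5 times a week from the second day after the cells were injected, and 4 were from mice given the vehicle, ethanol in buffered saline. Both groups carry the same transformed line, so 1 line stands for the endothelium, and the host's own vessels, stroma and immune cells, other than the T cells that nude mice lack, were part of each bulk tumor. The labels and methods state no age of the mice. The comparison asks whether the isomer changed the RNA of these factors in the tumors.

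Kruppel-like factors are zinc finger proteins that bind GC-rich and CACCC sequences in promoters and enhancers. In endothelium, Klf2 and Klf4 are induced by steady laminar flow, through a cascade of the kinases Map3k3, Map2k5 and Mapk7 that ends at Mef2 factors. They switch on genes that keep the vessel wall relaxed and free of clots, such as Nos3 and Thbd, and hold back inflammatory and constricting genes. In mice that lack proteins of the cerebral cavernous malformation complex in endothelium, this cascade is overactive, Klf2 and Klf4 accumulate and vascular lesions form.

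The sequences just before the starts of Klf2 and Klf4 are shown because these factors varied together among the tumors. RefSeq windows from 250 bases before to 50 after the start (GRCm38.p6) were matched for 7 of the 9 genes, which leaves out Klf5 and Klf10. For Klf2 the 221 bases at chr8:72318812-72319032 on the plus strand lie before the first annotated start, and for Klf4 the 250 bases at chr4:55532476-55532725 on the minus strand. The capitals mark a MEF2 site and the letters TGACG, or the same letters read on the other strand.
Klf2: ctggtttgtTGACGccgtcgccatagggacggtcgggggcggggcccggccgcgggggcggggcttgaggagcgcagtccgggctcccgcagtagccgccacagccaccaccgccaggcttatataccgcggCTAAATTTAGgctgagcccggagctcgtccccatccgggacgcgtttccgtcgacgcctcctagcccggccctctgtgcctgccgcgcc
Klf4: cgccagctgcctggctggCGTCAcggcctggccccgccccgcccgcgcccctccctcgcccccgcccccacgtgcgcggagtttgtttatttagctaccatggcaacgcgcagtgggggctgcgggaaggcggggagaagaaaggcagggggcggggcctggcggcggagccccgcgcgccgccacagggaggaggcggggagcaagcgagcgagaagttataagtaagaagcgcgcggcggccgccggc
The MEF2 site of Klf2 lay 109 to 118 bases before the RefSeq start. It reads the same on both strands, and a MEF2 site was found in 1 of the 7 windows, that of Klf2, against 3.19% of all 32851 windows in the table. The letters TGACG, which are part of the cyclic AMP response element TGACGTCA, lay 237 to 241 bases before the start of Klf2 and, on the other strand, 228 to 232 bases before the start of Klf4. They were also found in the windows of Klf3 and Klf13, so that 4 of 7 held them, against 20.8% of all windows. The GC box GGGCGG was in all 7 windows, against 35.7% of all. The whole element TGACGTCA (1.79% of all windows), the CArG box (1.63%), the CACCC box CCACACCC (3.56%) and TATAAA (13.6%) were in 0 of the 7. None of the marked letters overlapped another motif searched. Both strands were read for every motif, and a match is a description of the letters and not a site of binding.

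Each tumor had 1 library, with 21084749 to 27852630 counts over genes in R-propranolol-treated tumors and 20599904 to 24949010 in vehicle-treated tumors. The 12 endothelial markers were all detected in every tumor and summed to 981 to 1358 CPM (a gene's count relative to the TMM-scaled size of its library) in R-propranolol replicates 1 to 4, 805 CPM in R-propranolol replicate 5 and 979.8 to 1206 CPM in vehicle-treated tumors. R-propranolol replicate 5 stood apart. Its 8 skeletal muscle markers summed to 143910 CPM, against 4.06 to 9.28 CPM in the other R-propranolol-treated tumors and 4.37 to 351 CPM in vehicle-treated tumors. Its 6 adipocyte markers summed to 4326 CPM, against 47.4 to 169.6 CPM in R-propranolol replicates 1 to 4 and 47.1 to 343 CPM in vehicle-treated tumors. R-propranolol replicates 2 and 5 had the highest sums of 3 more lists of 6 markers each. Fibroblast markers summed to 31174 CPM in R-propranolol replicate 2 and 15491 CPM in R-propranolol replicate 5, against 5855 to 8450 CPM in vehicle-treated tumors. Mural markers summed to 349 and 239 CPM in the same tumors, against 92.3 to 135 CPM in vehicle-treated tumors, and macrophage markers to 2338 and 2349 CPM, against 649 to 1605 CPM. Hepatocyte markers summed to 19.3 to 87.9 CPM in R-propranolol-treated tumors, against 1.07 to 1.90 CPM in vehicle replicates 1, 3 and 4 and 33.5 CPM in vehicle replicate 2. Each comparison of a factor is therefore given with and without R-propranolol replicate 5. In bulk samples of this kind, fewer cells of a type and less RNA per cell cannot be told apart. The labels do not say that all 4 vehicle-treated tumors came from separate mice, and vehicle replicates 1 and 2 have the same number in their titles, so p-values measure only the spread between these tumors.

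By mean level per length, Klf6 was the most abundant of the 9 factors and Klf7 the least. On the scale of CPM per kilobase of exon, which allows levels of different genes to be compared, Klf6 averaged 49.5 ± 8.19 in R-propranolol-treated tumors and 43.6 ± 4.31 in vehicle-treated tumors (SD, n = 5 and 4). Klf4 followed with 26.6 ± 13.0 in R-propranolol-treated tumors and 15.8 ± 3.37 in vehicle-treated tumors. Klf6 was above Klf4 in 8 of 9 tumors. The vehicle means per kilobase then descended through Klf13 (12.8), Klf10 (11.9), Klf2 (7.04), Klf3 (5.95), Klf5 (4.51) and Klf11 (2.77) to Klf7 (1.75). Among vehicle-treated tumors the ranges of neighbors overlapped for Klf4 and Klf13, for Klf13 and Klf10, and for Klf2 and Klf3, and they were apart for the other 5 pairs of neighbors. The order in R-propranolol-treated tumors differed in that Klf2, at 18.2 ± 16.9 CPM per kilobase, was the third. In R-propranolol replicate 5 it reached 47.9 CPM per kilobase.

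**Figure D1:**
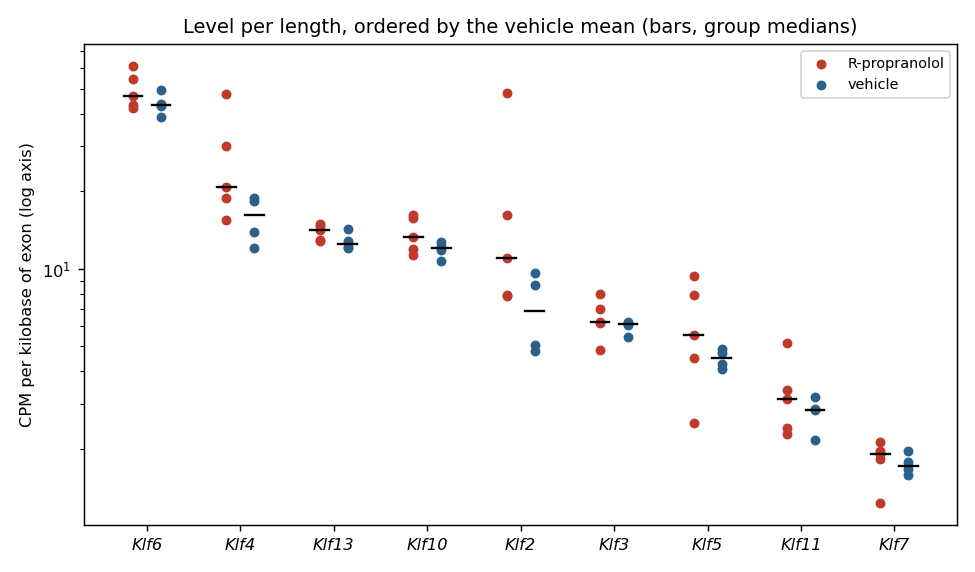
Level of each factor in CPM per kilobase of exon (vertical log axis), with 5 R-propranolol-treated tumors in red and 4 vehicle-treated tumors in blue as points and group medians as bars. Klf6 lies highest and Klf7 lowest, and 1 R-propranolol-treated tumor reaches 47.8 for Klf4 and 47.9 for Klf2.

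Klf2 and Klf4, the flow-responsive factors, had the largest fitted differences of the 9 with all tumors, while without R-propranolol replicate 5 the difference of Klf5 (0.60 on the log2 scale) was close to that of Klf2 (0.61) and above that of Klf4 (0.42). Klf2 (chromosome 8, 72319033 to 72321656 on GRCm38) had 14.4, 30.0, 20.4, 14.7 and 88.4 CPM in R-propranolol replicates 1 to 5, against 16.0, 17.8, 9.37 and 8.88 CPM in vehicle replicates 1 to 4. R-propranolol replicates 2, 3 and 5 were above every vehicle-treated tumor and the other 2 lay within the vehicle range, so the groups overlapped. The mean was 33.6 ± 31.3 CPM in R-propranolol-treated tumors and 13.0 ± 4.54 CPM in vehicle-treated tumors (SD, n = 5 and 4), from counts of 187 to 1330. The fitted log2 fold change of Klf2 was 1.37 (SE 0.59, 95% interval 0.03 to 2.71), with an adjusted p of 0.876 by edgeR's quasi-likelihood test and an unadjusted p of 0.0464. R-propranolol replicate 5 held 5.76 times the median of the other 8 tumors, and among the other 8 tumors the fitted difference of Klf2 was 0.61 on the log2 scale (SE 0.31, 95% interval -0.10 to 1.32, unadjusted p = 0.0853 by edgeR). Leaving out each of the 9 tumors in turn moved the unadjusted p of Klf2 between 0.0285 and 0.109. It stayed under 0.05 when R-propranolol replicate 1, 3 or 4 was left out, and passed above it without any 1 of vehicle replicates 1 to 4 or of R-propranolol replicates 2 and 5. The exact permutation test, two-sided over all ways to choose 4 of 9 tumors, gave p = 0.111 for Klf2, and 0.171 without R-propranolol replicate 5.

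Klf4 (chromosome 4, 55527143 to 55532466) had 57.7, 91.2, 63.5, 47.0 and 146 CPM in R-propranolol replicates 1 to 5, against 57.6, 56.0, 42.4 and 36.6 CPM in vehicle replicates 1 to 4. R-propranolol replicates 1, 2, 3 and 5 were above the highest vehicle-treated tumor, the first of them by 57.66 against 57.62 CPM, and R-propranolol replicate 4 lay within the vehicle range. The log2 fold change of Klf4 was 0.75 (SE 0.33, 95% interval -0.01 to 1.51, adjusted p = 0.876 by edgeR), with a mean of 81.0 ± 39.7 CPM in R-propranolol-treated tumors and 48.2 ± 10.3 CPM in vehicle-treated tumors. Without R-propranolol replicate 5, which held 2.57 times the median of the other 8 tumors, it was 0.42 (SE 0.22, 95% interval -0.08 to 0.92). The exact permutation p of Klf4 was 0.0952, and 0.143 without R-propranolol replicate 5. R-propranolol replicate 5 had the highest CPM of Klf2 and of Klf4 and the lowest sum of endothelial markers. Its ratios of these factors to that sum therefore had to be the highest, and only their size is informative. Klf4 had 181 counts per 1000 endothelial marker counts there, against 47.9 to 67.2 in R-propranolol replicates 1 to 4 and 30.4 to 58.8 in vehicle-treated tumors. Klf2 had 109.9 on the same scale in that tumor, against 13.8 to 22.1 in R-propranolol replicates 1 to 4 and 7.36 to 16.7 in vehicle-treated tumors. R-propranolol replicates 5 and 2, the highest tumors for Klf2 and Klf4, were also the highest for fibroblast, mural and macrophage markers. The part of these cell types, and of muscle and fat, in the values of Klf2 and Klf4 was not tested.

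**Figure D2:**
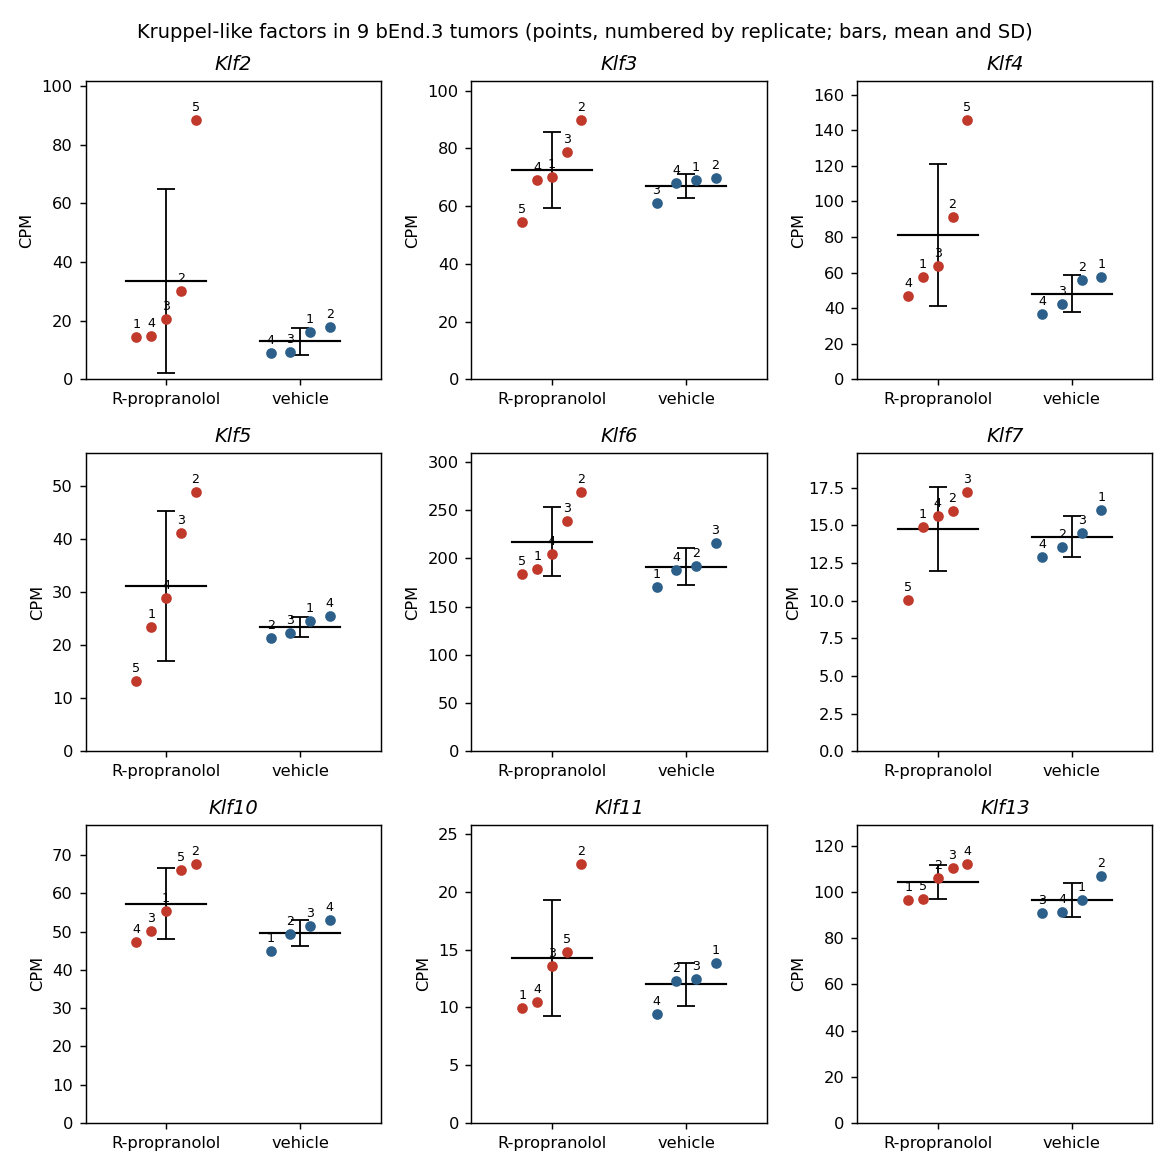
CPM of each factor (vertical axes from 0) in 5 R-propranolol-treated and 4 vehicle-treated tumors, as points numbered by replicate, with the mean and SD as bars. The groups overlap in all 9 panels, and R-propranolol replicate 5 is the highest tumor for Klf2 (88.4 CPM) and Klf4 (146 CPM) and the lowest for Klf3, Klf5 and Klf7.

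Klf5, Klf6 and Klf7 are mainly activators. Klf5 (chromosome 14, 99298691 to 99315036), which drives growth and remodeling of smooth muscle and epithelium, had 23.5, 49.0, 41.2, 28.9 and 13.2 CPM in R-propranolol replicates 1 to 5, against 24.6, 21.3, 22.2 and 25.5 CPM in vehicle replicates 1 to 4. R-propranolol replicates 2, 3 and 4 were above all vehicle-treated tumors, while R-propranolol replicate 5 was below all of them. The spread of Klf5 was wider among R-propranolol-treated tumors, with an SD of log2 CPM of 0.74 (0.48 without R-propranolol replicate 5), against 0.12 among vehicle-treated tumors; this difference in spread was not tested. Its log2 fold change was 0.41 (SE 0.34, 95% interval -0.35 to 1.17, adjusted p = 0.876 by edgeR) with all tumors. Without R-propranolol replicate 5 the log2 fold change of Klf5 was 0.60 (SE 0.21, 95% interval 0.11 to 1.09), with an unadjusted p of 0.0213 and an adjusted p of 0.9995 by edgeR. Without R-propranolol replicate 2, the highest tumor for Klf5, it was 0.19 (unadjusted p = 0.557 by edgeR). The exact permutation p was 0.452 for Klf5, and 0.0857 without R-propranolol replicate 5.

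Klf6 (chromosome 13, 5861482 to 5870394), an injury-induced factor that raises Eng and receptors of TGF-beta in endothelium, had 189, 269, 239, 205 and 184 CPM in R-propranolol replicates 1 to 5, against 170.2, 192, 216 and 188 CPM in vehicle replicates 1 to 4. Only R-propranolol replicates 2 and 3 were above the highest vehicle-treated tumor. The log2 fold change of Klf6 was 0.18 (SE 0.14, 95% interval -0.13 to 0.50), 0.23 (SE 0.12) without R-propranolol replicate 5 and 0.10 without R-propranolol replicate 2. Klf7 (chromosome 1, 64029447 to 64122282), best known from neurons, had 14.9, 16.0, 17.2, 15.6 and 10.04 CPM in R-propranolol replicates 1 to 5, against 16.1, 13.6, 14.5 and 12.9 CPM in vehicle replicates 1 to 4. Apart from the low R-propranolol replicate 5, the groups lay within a narrow band, and the log2 fold change was 0.05 (SE 0.18, 95% interval -0.35 to 0.45), and 0.16 (SE 0.10) without R-propranolol replicate 5. Klf7 shares 3196 of its 8131 exon bases with Gm26649 on the other strand, so its counts are uncertain where the strand of reads was not used.

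Klf3, Klf10, Klf11 and Klf13 mainly repress, Klf3 through the corepressors Ctbp1 and Ctbp2 and the others through Sin3a. Klf3 (chromosome 5, 64803388 to 64832901) had 70.2, 89.8, 78.7, 69.1 and 54.4 CPM in R-propranolol replicates 1 to 5, against 69.0, 69.7, 61.0 and 68.0 CPM in vehicle replicates 1 to 4. As for Klf5, R-propranolol replicates 2 and 3 were the highest tumors and R-propranolol replicate 5 the lowest, and the log2 fold change was 0.11 (SE 0.14, 95% interval -0.20 to 0.43) with it and 0.20 (SE 0.09, 95% interval -0.01 to 0.41) without it. Without R-propranolol replicate 2 the log2 fold change of Klf3 was 0.03. Klf3 shares 404 of 11243 exon bases with Gm20033 on the other strand. Klf10 (chromosome 15, 38291463 to 38300706), an early target of TGF-beta, had 55.3, 67.8, 50.1, 47.3 and 66.0 CPM in R-propranolol replicates 1 to 5, against 45.0, 49.3, 51.4 and 53.0 CPM in vehicle replicates 1 to 4. Its log2 fold change was 0.21 (SE 0.13, 95% interval -0.09 to 0.51), and 0.15 (SE 0.11) without R-propranolol replicate 5, with R-propranolol replicates 1, 2 and 5 above every vehicle-treated tumor.

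Klf11 (chromosome 12, 24651274 to 24662789), a close relative of Klf10, had 9.95, 22.5, 13.6, 10.5 and 14.8 CPM in R-propranolol replicates 1 to 5, against 13.9, 12.3, 12.4 and 9.45 CPM in vehicle replicates 1 to 4. It was highest in R-propranolol replicate 2, and the log2 fold change was 0.25 (SE 0.26, 95% interval -0.34 to 0.83), and 0.23 (SE 0.26) without R-propranolol replicate 5. Without R-propranolol replicate 2 the log2 fold change of Klf11 was 0.03. Klf13 (chromosome 7, 63886351 to 63938915), known as an activator of Ccl5 in T lymphocytes, had 96.4, 106, 110.3, 112 and 97.1 CPM in R-propranolol replicates 1 to 5, against 96.4, 107, 91.1 and 91.4 CPM in vehicle replicates 1 to 4. With all tumors it varied the least of the 9 among R-propranolol-treated tumors, with an SD of log2 CPM of 0.10, against 0.11 among vehicle-treated tumors. Its log2 fold change was 0.11 (SE 0.09, 95% interval -0.09 to 0.32), and 0.14 (SE 0.08) without R-propranolol replicate 5. For Klf3, Klf6, Klf7, Klf10, Klf11 and Klf13 the exact permutation p lay between 0.151 and 0.889 with all tumors, and between 0.0571 and 0.686 without R-propranolol replicate 5.

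No factor passed the adjusted test. At an adjusted p under 0.05, edgeR called 0 of the 9 factors and 0.0% of the 13901 genes tested, while 320 genes had an unadjusted p under 0.05. DESeq2 called 2 genes after adjustment (656 unadjusted) and limma-voom with quality weights 0 (838 unadjusted), and neither tool called a factor after adjustment. At an unadjusted p under 0.05, 1 of the 9 factors, Klf2, was higher, against a background of 2.01% of genes. Without R-propranolol replicate 5 the count was again 1, then Klf5, against 2.65%. In 0 of the 9 was every R-propranolol-treated tumor above every vehicle-treated tumor, which held for 0.633% of genes. All 9 log2 fold changes were above 0, against 54.3% of genes tested, and all 9 were above 0 without R-propranolol replicate 5, against 53.7%. Their median was 0.21, beside a median of 0.03 over all genes tested, and without R-propranolol replicate 5 it was 0.23 beside 0.01. Without R-propranolol replicate 2 all 9 were above 0 and the median was 0.11 beside 0.01. Scaled by library size alone, the median of all genes moved to -0.10 and that of the factors to 0.06. Then 6 of 9 factors were above 0, against 35.8% of genes, and all 9 were above the median of all genes. Klf3, Klf7 and Klf13 were the 3 below 0. With summed endothelial markers as library size, added after seeing the data, 8 of 9 were above the median of all genes. Klf7 was below it there and in several other settings, as was Klf11 under limma-voom with quality weights.

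**Figure D3:**
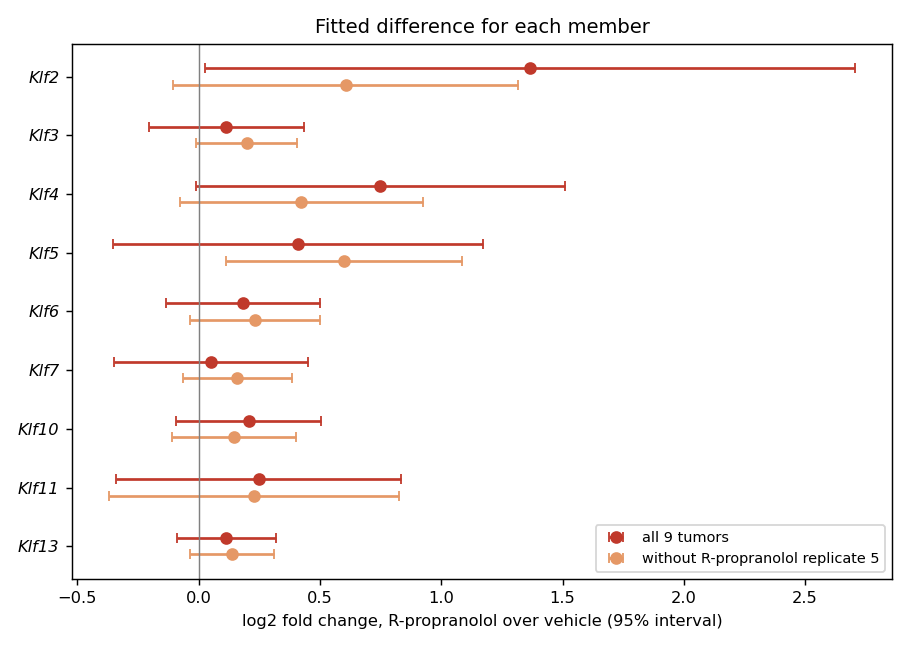
Fitted log2 fold change of each factor, R-propranolol over vehicle (horizontal axis), as points with 95% intervals, for all 9 tumors in red and without R-propranolol replicate 5 in orange. The interval of Klf2 lies above 0 with all tumors only (0.03 to 2.71), and that of Klf5 without replicate 5 only (0.11 to 1.09).

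Klf2 and Klf4 varied together from tumor to tumor. Over the 9 tumors their log2 CPM correlated with Pearson's r = 0.981 (exact permutation p = 3.9e-05, adjusted p = 0.00139 over 36 pairs) and Spearman's rho = 0.883 (exact permutation p = 0.00308, adjusted p = 0.111). Without the 2 tumors farthest from the median of Klf2 r was 0.926, and without R-propranolol replicate 5 it was 0.960 (exact permutation, adjusted p = 0.0125). With each value centred on the mean of its own group r was 0.973 (permutation over all 9 tumors, adjusted p = 0.00754). The orderings were not kept within groups, so the p of centred values is approximate. Vehicle replicates 3 and 4 were the lowest tumors for both factors, and R-propranolol replicates 5, 2 and 3 the 3 highest for both. The tumors share their makeup of cell types within each library, and its part in the correlation was not tested.

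Klf3 and Klf5 formed the other pair that passed. Their r was 0.943 (exact permutation p = 0.00122, adjusted p = 0.0220) and rho 0.667 (exact permutation p = 0.0589, adjusted p = 0.353). Centred on group means r was 0.939 (permutation over all tumors, adjusted p = 0.0162, likewise approximate). It was 0.769 without the 2 tumors farthest from the median of Klf3, and 0.900 without R-propranolol replicate 5, where the adjusted p (exact permutation) was 0.0676. Of the 36 pairs, 27 had r above 0 with all tumors and 35 without R-propranolol replicate 5, in which Klf2 and Klf4 were high and Klf3, Klf5 and Klf7 low. With 8 tumors, the pair of Klf2 and Klf4 alone kept an adjusted p under 0.05.

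**Figure D4:**
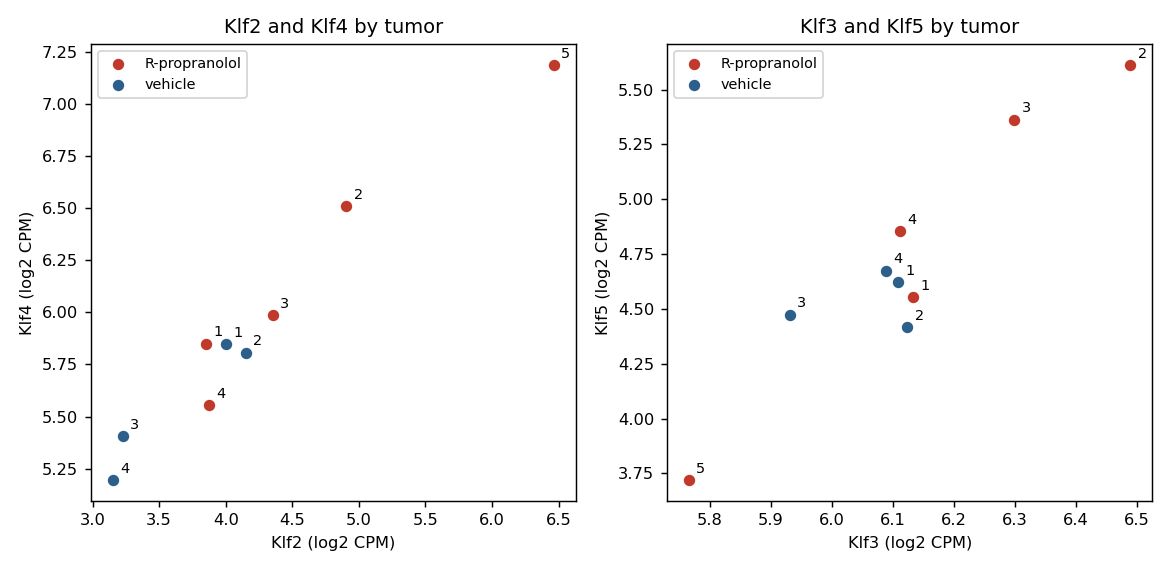
Log2 CPM of Klf4 against Klf2 (left) and of Klf5 against Klf3 (right) in each tumor, with R-propranolol in red and vehicle in blue, numbered by replicate. Klf2 and Klf4 lie along 1 line with r = 0.981, while in the right panel the tumors other than R-propranolol replicates 2, 3 and 5 form a cluster.

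Among the 13900 other genes tested, Klf4 was the gene most like Klf2 over the 9 tumors. It was followed by Adamtsl4 (r = 0.974), Flii (r = 0.973), Iqsec1 (r = 0.972) and Arhgap10 (r = 0.970). The genes most like Klf4 were Klf2, Siah2 (r = 0.980), Mark2 (r = 0.974), Adamtsl4 (r = 0.964) and Caskin2 (r = 0.962). All of these genes had their highest CPM in R-propranolol replicate 5. Over the 8 other tumors, Klf4 was the third most like Klf2 (r = 0.960), after Klhl21 (r = 0.986) and Atg2a (r = 0.968), and 1 of the 5 leading genes was shared with the list over 9 tumors, for Klf2 and for Klf4 alike. The genes most like Klf4 over these 8 tumors were Adarb1 (r = 0.965), Klf2 (r = 0.960), Mapk7 (r = 0.956), Phlpp1 (r = 0.954) and Numb (r = 0.952). Mapk7, the last kinase of the cascade upstream, was singled out after its values were seen. Over all 9 tumors its r with Klf4 was -0.24.

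Elsewhere in the family, Klf9 and Klf15 were also highest in R-propranolol replicate 5. Of 17 further Klf and Sp genes 8 passed the filter, 4 of them with a log2 fold change above 0 (median 0.00), against 54.3% of genes, and 2 with library size alone, against 35.8%, and 0 had an unadjusted p under 0.05. Klf9, a glucocorticoid-induced factor, had 23.0, 26.3, 29.0, 19.1 and 154 CPM in R-propranolol replicates 1 to 5, against 16.6, 20.2, 19.7 and 18.4 CPM in vehicle replicates 1 to 4. R-propranolol replicates 1, 2, 3 and 5 were above all vehicle-treated tumors, and the log2 fold change was 1.42 (SE 0.65) with all tumors and 0.38 (SE 0.13, unadjusted p = 0.0219 by edgeR) without R-propranolol replicate 5. Klf15, abundant in muscle and fat, had 0.635, 1.36, 0.611, 0.861 and 26.5 CPM in R-propranolol replicates 1 to 5, against 1.08, 0.925, 1.35 and 0.902 CPM in vehicle replicates 1 to 4. R-propranolol replicates 1, 3 and 4 were below every vehicle-treated tumor and R-propranolol replicates 2 and 5 above every one, and the log2 fold change was 2.48 (SE 1.29) with R-propranolol replicate 5 and -0.30 (SE 0.32) without it. Among genes chosen after their values were seen, Klf12 had 148 counts in that tumor and 0 to 28 in the others, and Klf8 had 0.199 times the median of the others.

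**Figure D5:**
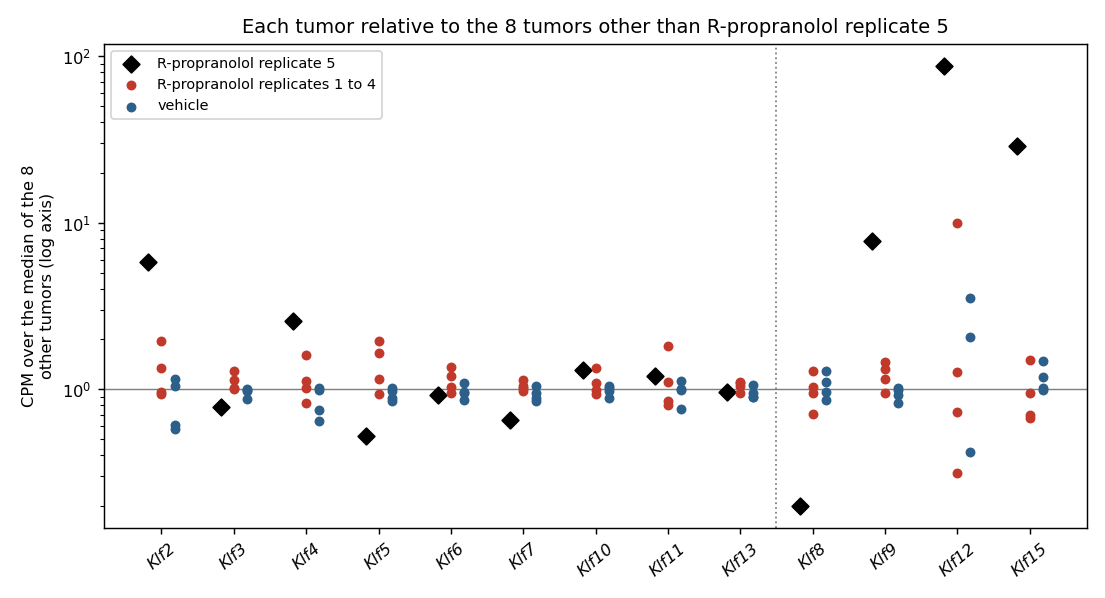
CPM of each tumor divided by the median of the 8 tumors other than R-propranolol replicate 5 (vertical log axis), for the 9 factors and, right of the dotted line, Klf8, Klf9, Klf12 and Klf15, of which Klf8 and Klf12 were chosen after their values were seen. R-propranolol replicate 5 (black) lies at 5.76 for Klf2 and 2.57 for Klf4, and at 29.1 for Klf15, and 1 vehicle value of Klf12, a count of 0, is not drawn.

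Of 15 genes upstream of Klf2 and Klf4, 13 had a log2 fold change above 0 (median 0.10, against 0.03 over all genes), against 54.3% of genes, and 1, Mef2d, was higher at an unadjusted p under 0.05, against 2.01% of genes. The list joins the cascade with proteins of the cerebral cavernous malformation complex, whose loss makes it overactive, so its signs have no single meaning. Of that complex, Krit1, Ccm2 and Pdcd10 had log2 fold changes of -0.16, 0.07 and -0.19. Without R-propranolol replicate 5, 11 of the 15 were above 0 (median 0.13, against 0.01), against 53.7% of genes. At an unadjusted p under 0.05, 2 were then higher, against 2.65% of genes. With library size alone 7 of the 15 were above 0, against 35.8% of genes, and 12 were above the median of all genes. Mef2d, a factor that binds MEF2 sites, had 157, 151, 167, 139 and 223 CPM in R-propranolol replicates 1 to 5, against 135, 139.7, 118 and 125.7 CPM in vehicle replicates 1 to 4. All but R-propranolol replicate 4 were above every vehicle-treated tumor, and the log2 fold change was 0.37 (SE 0.14, unadjusted p = 0.0314, adjusted p = 0.876 by edgeR), and 0.24 (SE 0.08) without R-propranolol replicate 5. Of the 5985 exon bases of Mef2d, 531 lie in a gene on the opposite strand. Mef2c, named after its values were seen, had 575 CPM in R-propranolol replicate 5 and 17.7 to 31.8 CPM in the other 8 tumors. Its log2 fold change was 2.49 (SE 1.12) with all tumors and 0.20 (SE 0.17) without R-propranolol replicate 5. That tumor also had by far the highest skeletal muscle markers, whose part in the level of Mef2c was not tested. The kinases Map3k3, Map2k5 and Mapk7 had log2 fold changes of 0.05, 0.01 and 0.05.

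The known targets of Klf2 and Klf4 gave no common direction. Of 9 genes that these factors activate in endothelium 8 were tested, 5 had a log2 fold change above 0 (median 0.25), against 54.3% of genes, and 0 had an unadjusted p under 0.05. Adamts1, a protease that restrains angiogenesis, had 254, 229.3, 322, 244 and 211 CPM in R-propranolol replicates 1 to 5, against 159, 196, 208 and 229.0 CPM in vehicle replicates 1 to 4. All but R-propranolol replicate 5 were above the vehicle-treated tumors, with a log2 fold change of 0.35 (SE 0.16) and, without that tumor, 0.40 (SE 0.14, unadjusted p = 0.0181 by edgeR). Adamts5, a protease of the same family, had a log2 fold change of 0.68 (SE 0.39), and 0.28 (SE 0.26) without R-propranolol replicate 5. Nos3, the endothelial nitric oxide synthase, and Thbd, the anticoagulant receptor thrombomodulin, were named after their values were seen. They had log2 fold changes of -0.09 (SE 0.22) and 0.23 (SE 0.33), and Nos3 shares exon bases with Gm15587 and Atg9b on the other strand.

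Of 8 genes that Klf2 and Klf4 repress, 4 had a log2 fold change above 0 (median 0.00), against 54.3% of genes, and 1, Edn1, was higher at an unadjusted p under 0.05, against 2.01%. Edn1, which encodes the vessel constrictor endothelin, had 1.76, 7.64, 1.90, 1.56 and 4.39 CPM in R-propranolol replicates 1 to 5, against 1.59, 1.08, 1.71 and 0.570 CPM in vehicle replicates 1 to 4. It was highest in R-propranolol replicates 2 and 5, and the log2 fold change was 1.47 (SE 0.58, adjusted p = 0.876 by edgeR) from counts of 12 to 191, and 1.36 (SE 0.60) without R-propranolol replicate 5. Of 11 cofactors and ubiquitin ligases 7 had a log2 fold change above 0 (median 0.05), against 54.3% of genes, and 3 with library size alone, against 35.8%, and 0 had an unadjusted p under 0.05. Wwp1 and Fbxw7, ligases that mark Klf2 or Klf5 for destruction, had the smallest p, with log2 fold changes of 0.75 (SE 0.41) and 0.28 (SE 0.18), and of 0.20 (SE 0.12) and 0.12 (SE 0.09) without R-propranolol replicate 5.

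Klf2, Klf4, Klf6 and Klf10 are also quickly induced in stimulated cells, so the immediate-early genes were set beside them. Of 16 such genes 15 had a log2 fold change above 0 (median 0.49), against 54.3% of genes. At an unadjusted p under 0.05, 7 of the 16 were higher in R-propranolol-treated tumors, against 2.01% of genes: Egr1, Dusp1, Per1, Nr4a1, Fos, Fosb and Ier2. The list was chosen with earlier results of these data known, and the study reports Egr1, Fos and Nr4a1 as upregulated. Counts over this list are therefore no independent test. Egr1 had the smallest p, with a log2 fold change of 1.11 (SE 0.22, adjusted p = 0.876 by edgeR). The log2 fold changes of the 7 ran from 0.41 for Ier2 to 2.06 for Fos. Of the 16 genes, 5 were higher without overlap between the groups, beside 0.633% of all genes tested. These were the 7 apart from Fosb and Nr4a1. Without R-propranolol replicate 5 the median of the 16 was 0.62, and 10 were higher at an unadjusted p under 0.05, against 2.65% of genes.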

How the data were processed

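RNA was measured in 9 bEnd.3 tumors, 5 R-propranolol-treated and 4 vehicle-treated, with 1 library per tumor. The deposited values are raw counts per gene symbol. The authors prepared NEBNext Ultra libraries and sequenced pairs of 150-base reads, and the submitters' processing notes name mm10, FastQC, STAR, HTSeq and edgeR. For the versions, the gene annotation and the strandedness of counting, the sources used here give nothing. HTSeq left out 13.4% to 15.4% of reads as outside genes, 1.81% to 1.98% as ambiguous, and 3.46% to 3.99% as placed in several sites, except 7.86% in R-propranolol replicate 5. These rows were kept out of library sizes.

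Counts were filtered with filterByExpr (minimum count 10, minimum total 15), scaled by TMM and tested with the quasi-likelihood test of edgeR 4.0.16 in R 4.3.3, with Benjamini-Hochberg adjustment over all 13901 genes tested. CPM used TMM-scaled library sizes, and log2 CPM a prior count of 0.25. Single factors were also compared by an exact permutation test, two-sided, whose smallest p is 0.00794 for 5 against 4 tumors and 0.0286 for 4 against 4. Correlations used exact permutation over orderings, which is only approximate for values centred on group means. The scripts were tested on simulated data. Exon lengths and places are from GENCODE M21 (GRCm38, the mm10 sequence) and promoter windows from RefSeq.

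All 9 factors are named. From each list, genes with an unadjusted p under 0.05 are named, or else the 2 with the smallest p, and for Klf2 and Klf4 the 5 genes with the highest r. The factors and lists were chosen with earlier results of these data known. Alternatives were scaling by library size alone or by size factors of DESeq2 1.42.0, the DESeq2 test itself, limma-voom (limma 3.58.1) with quality weights, a filter of at least 1 CPM in at least 4 tumors or none, a replicate block, each tumor left out in turn, and summing vehicle replicates 1 and 2. Scaling by summed endothelial markers, and further settings of the exact test and of the correlations, were added after seeing the data. The chi-square per gene was 20.4 or more for each of the 16 pairs of libraries within a group, so none was counted as a repeat of another; pairs across groups were not compared. The study's methods give 5 tumors per group, and 4 vehicle libraries were analysed here.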

Additional observations from a re-analysis of the deposited data

Results flagged for a closer look

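Single tumors lay far from the rest of their group for 4 of the values checked by Dixon's ratio of gap to range, which chance passes in about 1 in 20 groups. Klf7 in R-propranolol replicate 5, at 10.04 CPM, was below the other R-propranolol-treated tumors (14.9 to 17.2 CPM), and this was 1 of 18 groups of values checked for the 9 factors. Among 18 groups of marker sums 3 were far out. They were the skeletal muscle markers at 143910 CPM and the adipocyte markers at 4326 CPM in R-propranolol replicate 5, and the hepatocyte markers at 33.5 CPM in vehicle replicate 2, against 1.07 to 1.90 CPM in the other vehicle-treated tumors. In R-propranolol-treated tumors the same sum was at 19.3 to 87.9 CPM. The part of these cell types in the levels of the factors was not tested.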

How the results depend on the processing

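No factor had an adjusted p under 0.05 in any of the 18 alternatives. Of 162 log2 fold changes of the factors under them 157 kept their direction and 5 turned: Klf3 (-0.0049), Klf7 (-0.063) and Klf13 (-0.015) with library size alone, Klf11 (-0.13) under limma-voom with quality weights, and Klf7 when leaving out tumors (-0.00093 to 0.16, lowest without R-propranolol replicate 3). The count of factors at an unadjusted p under 0.05, 1 in the main comparison, was 2 with DESeq2 and with no filter, and 0 with library size alone, limma-voom, vehicle replicates 1 and 2 summed, and summed endothelial markers as library size (added after seeing the data), and 0 to 2 when leaving out single tumors. limma-voom gave R-propranolol replicate 5 a weight of 0.0425, and log2 fold changes of 0.22 for Klf2 and for Klf4 and 0.30 for Klf5. The exact permutation test, under 0.05 for 0 factors with all tumors, gave 0 to 1 when leaving out tumors: Klf4 without R-propranolol replicate 4 (exact p = 0.0286, the smallest it can give) and Klf13 without vehicle replicate 2 (exact p = 0.0357). The correlated pairs, 2 with all tumors, were 1 without R-propranolol replicate 5. Deviations of same-numbered tumors from their group means correlated at -0.28, 0.088, -0.64 and 0.53, with no common sign. The tumors also differ in cell makeup, so these values cannot exclude a pairing by replicate number. A replicate block gave 3 factors at an unadjusted p under 0.05 (Klf2 0.62, Klf4 0.41 and Klf6 0.23 on the log2 scale) and 0 adjusted. No vehicle-treated tumor has the number 5, so in that fit R-propranolol replicate 5 adds nothing to the fitted differences. With 5 against 4 tumors the SE of the log2 fold change ran from 0.09 (Klf13) to 0.59 (Klf2).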
